A study of Mus musculus with 4 samples.

Results

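The myosin light chains of the mouse heart were followed as 9 genes: the regulatory chains Myl2, Myl7 and Myl9, the essential chains Myl3, Myl4, Myl1, Myl6 and Myl6b, and the light chain kinase Mylk3. They were taken by name from the deposited expression tables, which list 22552 rows for each stage, and each of the 9 had a single row in both. The data are 4 libraries of poly-A selected RNA from whole hearts of mice of the strain labelled Sv129. At postnatal day 2.5 (P2.5) and at embryonic day 15.5 (E15.5), 1 library came from hearts that lack both genes of the microRNA miR-1, namely miR-1-1 and its paralog miR-1-2 (labelled dKO), and 1 from a control labelled dHET. The control is described as a littermate for P2.5. The control column is headed as heterozygous in the P2.5 table and as WT in the E15.5 table. How many hearts went into a library is not given in the sources used here. With 1 library in each group no value has a replicate error, and every difference described is a difference between 2 libraries.

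A myosin motor consists of heavy chains whose lever arms each carry an essential and a regulatory light chain. Heart muscle cells use chamber-specific forms: Myl2 and Myl3 in the ventricles, and Myl7 and Myl4 in the atria, with Myl4 also present in the ventricles before birth. Smooth muscle and nonmuscle cells use other forms, among them Myl9 and Myl6, and phosphorylation of the regulatory chain by light chain kinases tunes contraction. The libraries had scaling totals, recovered from the values of single fragments, of about 44600000 (dHET) and 49900000 (dKO) fragments at P2.5, and of about 86500000 and 104000000 at E15.5. The P2.5 pair also differed in sex: Xist, expressed from the inactive X chromosome, was at 0.101 FPKM in the dHET library and 50.7 in the dKO one, and the Y-linked Eif2s3y was at 36.1 and 0.0113. FPKM is the number of fragments per kilobase of transcript and per 1000000 fragments. Sex and genotype therefore cannot be told apart at P2.5, whereas at E15.5 Eif2s3y was at 28.6 and 25.1 FPKM.

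The DNA just upstream of listed starts is shown first, because 4 light chain genes that stand on different chromosomes share a motif there. The motif is the CArG box, the ten-base site of serum response factor, a factor that drives many muscle genes. Its pattern is the same on both strands, and it was searched in windows from 250 bases before to 50 bases after each RefSeq start (build GRCm38.p6). It was found in 4 of the 12 windows of the 9 genes, in Myl7, Myl9, Myl3 and Myl6, and in 1.63% of all 32851 windows. Below, the 250 bases before the start are given 5′ to 3′ for these 4 and, as the atrial partner of Myl7 with no match, for Myl4; capitals mark the box.
Myl7, chr11:5898783-5899032 (- strand): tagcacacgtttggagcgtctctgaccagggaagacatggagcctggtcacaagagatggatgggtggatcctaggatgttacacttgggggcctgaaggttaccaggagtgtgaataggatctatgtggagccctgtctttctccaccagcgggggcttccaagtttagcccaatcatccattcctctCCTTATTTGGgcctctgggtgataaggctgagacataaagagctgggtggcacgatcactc
Myl9, chr2:156775214-156775463 (+ strand): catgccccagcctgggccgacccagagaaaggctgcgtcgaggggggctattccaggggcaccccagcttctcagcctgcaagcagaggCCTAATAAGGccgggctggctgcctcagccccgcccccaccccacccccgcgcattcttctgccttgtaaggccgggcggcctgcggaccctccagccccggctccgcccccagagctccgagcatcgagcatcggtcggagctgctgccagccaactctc
Myl3, chr9:110763428-110763677 (+ strand): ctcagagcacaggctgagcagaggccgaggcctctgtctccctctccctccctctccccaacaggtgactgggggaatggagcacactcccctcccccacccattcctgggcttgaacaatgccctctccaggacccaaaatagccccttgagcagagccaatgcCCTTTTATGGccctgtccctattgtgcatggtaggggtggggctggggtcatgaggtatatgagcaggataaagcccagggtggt
Myl6, chr10:128493010-128493259 (- strand): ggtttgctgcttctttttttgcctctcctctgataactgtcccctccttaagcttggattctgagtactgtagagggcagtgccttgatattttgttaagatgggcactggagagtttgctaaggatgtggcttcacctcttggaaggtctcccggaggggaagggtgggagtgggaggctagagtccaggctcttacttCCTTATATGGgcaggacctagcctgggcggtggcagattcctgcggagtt
Myl4, chr11:104550413-104550662 (+ strand): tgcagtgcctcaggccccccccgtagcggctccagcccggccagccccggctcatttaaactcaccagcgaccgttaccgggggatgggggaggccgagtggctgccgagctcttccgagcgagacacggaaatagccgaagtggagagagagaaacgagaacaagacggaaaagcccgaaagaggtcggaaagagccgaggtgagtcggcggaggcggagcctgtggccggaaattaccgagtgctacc
The box ends 52 bases before the start in Myl7, 152 in Myl9, 76 in Myl3 and 41 in Myl6. In Myl6 it lies at the second of the listed starts, and the window of the first has no match. That second start is downstream of the first, so the box of Myl6 lies downstream of the first start. The GENCODE M1 annotation gives 1 coding start for Myl6, and use of the second start in these hearts was not tested. The Myl4 window is that of its most upstream start. In the GENCODE M1 annotation the other coding starts of Myl4 lie 24783 to 34301 bases downstream and were not searched. A match is a description of the sequence and shows no binding.

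The 3′ untranslated regions were searched for the word ACATTCC, which pairs with the seed of miR-1. It was present in 0 of the 9 genes, and in 9.13% of the 19915 genes with an annotated 3′ untranslated region (GENCODE M1, longest per gene). Those of the light chains and Mylk3 are 43 (Myl7) to 1158 bases long (Mylk3), against a median of 893 over all genes. Among 22 genes of a list for light chain phosphorylation it was present in 1, Mylk, which encodes the smooth muscle light chain kinase. It stands at position 1370 of the 1902-base 3′ untranslated region of Mylk (chromosome 16, + strand), shown with 10 bases on either side and the word in capitals.
Mylk site: tgtgtgtctaACATTCCaaatactttt
Mylk was at 4.71 FPKM in the dHET library and 6.56 in the dKO one at P2.5, and 4.22 and 3.99 in the E15.5 pair. The P2.5 values differ by less than 1.5-fold (a log2 change of 0.40), and at E15.5 the order is turned.

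Among the regulatory chains, the atrial Myl7 differed most between the libraries. Myl7 (RefSeq NM_022879, chromosome 11, 5796640 to 5798785, mm9, 7 exons) was at 41.7 FPKM in the P2.5 dHET library and at 161 in the dKO library. Its log2 change, log2((FPKM dKO + 1)/(FPKM dHET + 1)), was 1.92, and its place among all rows of the table moved from 1024 to 211. At E15.5 Myl7 was at 234 FPKM in the dHET library and 333 in the dKO one, a change of 0.51. The dKO library was thus the higher at both stages, and at E15.5 it stayed under the 1.5-fold used here as a mark. In the authors' deposited table the P2.5 difference has p = 1.77e-11 and q = 2.67e-08, and the E15.5 difference has p = 0.00134 and q = 0.115. Those p-values compare 2 libraries, not genotypes. In a bulk sample, a different number of cells of a type and a different amount of RNA per cell cannot be told apart.

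The ventricular Myl2 (chromosome 5, 122550989 to 122556863) had the highest level of the rows used in both P2.5 libraries, at 7059 FPKM in the dHET library and 8550.3 in the dKO one, a change of 0.28. At E15.5 it ranked second in both libraries among all rows, flagged rows included at their listed values, at 3375 and 3177 FPKM (-0.09). The dKO library was the higher at P2.5 and the lower at E15.5, and neither difference reached 1.5-fold. The standard error of the log2 fold change implied by the authors' deposited table was 0.78 in the P2.5 pair and 0.32 in the E15.5 pair, larger than the differences themselves. Myl2 made up 2.69% of the summed FPKM of the rows used in the P2.5 dHET library and 2.89% in dKO. That sum leaves out flagged rows, among them the heavy chain Myh6, listed at 2270.4 FPKM in dHET and 0 in dKO.

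Myl9, the regulatory chain of smooth muscle and nonmuscle myosin (chromosome 2, 156601200 to 156607393), was at 464 FPKM in the dHET library and 792 in the dKO one at P2.5, a change of 0.77. At E15.5 it was at 721 and 967 FPKM (0.42). The dKO library was the higher at both stages and passed 1.5-fold at P2.5. The authors' deposited table gives q = 0.895 for the P2.5 difference and an implied standard error of 0.36.

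The atrial essential chain Myl4 was past 1.5-fold at P2.5 and nearly equal in the E15.5 libraries. Myl4 (chromosome 11, 104411977 to 104448533) was at 29.0 FPKM in the P2.5 dHET library and 66.0 in dKO, a change of 1.16. In the authors' deposited table this difference has p = 4.29e-05 and q = 0.0132. At E15.5 Myl4 was at 679.9 FPKM in the dHET library and 692 in the dKO one (0.02), with an implied standard error of 0.20 in the authors' deposited table. Its atrial partner Myl7 differed at E15.5 by 0.51, so the 2 atrial chains, which share the direction at P2.5, had unequal changes in the fetal pair of libraries.

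Myl3, the ventricular essential chain (chromosome 9, 110666185 to 110672298), was at 3457 FPKM in the dHET library and 4913 in the dKO one at P2.5, a change of 0.51. It measured 1630.5 and 1605 FPKM at E15.5 (-0.02). The P2.5 difference, just under 1.5-fold, has an implied standard error of 0.68 in the authors' deposited table. Like Myl2, it was higher in the P2.5 dKO library and level in the E15.5 pair.

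Myl6 was the only one of the 9 genes that was at least 1.5-fold higher in dKO at both stages. This essential chain of smooth muscle and nonmuscle myosin (chromosome 10, 127927917 to 127930881) was at 53.5 FPKM in the dHET library and 127 in the dKO one at P2.5, a change of 1.23. At E15.5 it was at 38.8 and 77.7 FPKM (0.98). The authors' deposited table gives q = 0.00447 and q = 1.72e-05. The value is uncertain, since the 665-base transcript has 5 other copies in the mm9 genome that cover 82.9% to 99.8% of it at 96.0% to 99.6% identity. How the authors' counting shared reads among such copies is not given in the sources used here. Of the other 8 genes only Myl1 has such a copy (65.0% covered, 98.9% identical).

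Myl6b, a low-level essential chain, lies 281 bases from Myl6 on the same strand (chromosome 10, 127931213 to 127935741). It was at 1.05 FPKM in the dHET library and 1.93 in the dKO one at P2.5, about 48 and 99 fragments, a change of 0.52. This change was 0.82 with a pseudocount of 0.1 and 0.20 with one of 5, and it is 0.88 in the authors' deposited table. At E15.5 it was at 0.654 and 0.713 FPKM, about 58 and 76 fragments (0.05). The counting error alone (exact binomial, 95% interval) gave dKO over dHET ratios of 1.29 to 2.66 at P2.5 and 0.764 to 1.56 at E15.5. Myl6b was below 2 FPKM in each library, so the difference at P2.5 is between low levels.

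Myl1, the essential chain of fast skeletal muscle (chromosome 1, 66970870 to 66991630), was at 0.165 FPKM in the dHET library and 0.0981 in the dKO one at P2.5, about 8 and 5 fragments. At E15.5 it was at 0.109 and 0.518 FPKM, about 10 and 58 fragments, a ratio of 4.75 with a counting interval of 2.44 to 10.6. On the log2(FPKM + 1) scale this is a change of 0.45, because the pseudocount of 1 exceeds both levels. The authors' deposited table gives p = 0.00733 and q = 0.401 for it. The summed level of 19 skeletal muscle markers was 17.2 FPKM in the dHET library and 10.7 in the dKO one at E15.5, and 5.76 and 5.20 at P2.5. Their master regulators and structural genes were low, with 16 of 19 under 1 FPKM in both E15.5 libraries and 18 of 19 in both P2.5 libraries. The highest of them, Tnni2 (fast troponin I), measured 11.6 and 5.02 FPKM at E15.5, lower in dKO where Myl1 was higher.

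**Figure D1:**
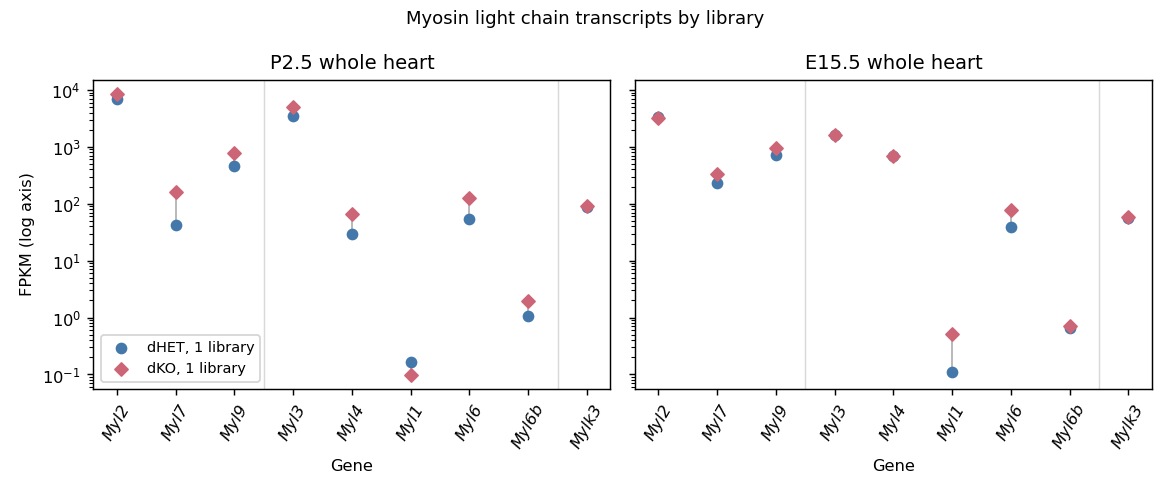
FPKM (log axis) of the 9 genes in the 4 libraries, grouped from left to right as regulatory chains, essential chains and the kinase; circles are dHET, diamonds dKO, with 1 library each. At P2.5 the widest gaps above 10 FPKM are those of Myl7 (41.7 and 161), Myl6 (53.5 and 127) and Myl4 (29.0 and 66.0), and at E15.5 the points of Myl2, Myl3, Myl4 and Mylk3 nearly coincide.

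In order of level per length, Myl2, Myl3 and Myl9 led in each of the 4 libraries. In the P2.5 dHET library Mylk3, Myl6, Myl7 and Myl4 followed, and in the P2.5 dKO library Myl7, Myl6, Mylk3 and Myl4. In the E15.5 libraries Myl4 and Myl7 came next, then Mylk3 and Myl6 in dHET and Myl6 and Mylk3 in dKO. Myl6b and Myl1 were the lowest throughout. Whether neighbours in this order differ beyond the spread between hearts cannot be said from 1 library each.

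Mylk3 (chromosome 8, 87848828 to 87889223), the cardiac kinase that phosphorylates Myl2, differed little between the libraries. It was at 87.7 FPKM in the dHET library and 92.7 in the dKO one at P2.5 (0.08), and at 56.0 and 58.4 at E15.5 (0.06). The sign of the P2.5 value turned when both libraries were rescaled to the same sum (-0.09). The level of Myl2 was 80.5 times that of Mylk3 in the P2.5 dHET library and 92.3 times in dKO, and 60.3 and 54.4 times at E15.5.

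The other genes that add or remove the light chain phosphate, a list of 22 that holds kinases, phosphatase subunits and calmodulins, showed 1 member past 1.5-fold upward in dKO and 0 downward at P2.5, of 19 that passed the level filter. That gene was Ppp1r14a, an inhibitor of myosin phosphatase, at 7.56 FPKM in the dHET library and 12.9 in the dKO one (0.70), and at 5.47 and 6.59 at E15.5. The median change of the list was 0.14 in the P2.5 pair and -0.01 in the E15.5 pair. In the latter, 0 of 18 members passed 1.5-fold in either direction. Over all rows that passed this filter, 3.59% of the P2.5 changes lay beyond that mark upward and 1.15% downward. For the E15.5 pair these shares were 0.494% and 0.566%. Beside such shares, 1 of 19 and 0 of 18 do not set the list apart. Ppp1r12c, a targeting subunit of the phosphatase, was at 21.1 and 28.5 FPKM at P2.5. Mylk4, a further light chain kinase, went the other way at a low level (1.21 and 0.643). The largest E15.5 differences were those of Ppp1r14b (23.5 and 18.8 FPKM) and Calm2 (81.7 and 98.8).

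The nonmuscle regulatory chains outside the 9 genes lay on the other side. Myl12b (chromosome 17) was at 55.7 FPKM in the dHET library and 30.3 in the dKO one at P2.5 (-0.86), and at 36.3 and 31.9 at E15.5 (-0.18). Its neighbour Myl12a, listed under its older name 2900073G15Rik and matched by its RefSeq accession, was at 91.2 and 76.8 FPKM at P2.5 and 87.8 and 66.2 in the E15.5 pair. Both were lower in dKO at both stages, opposite to Myl9 and Myl6. Myl12a and Myl12b are alike in their coding sequence and reads may be shared between them, so the split between the 2 rows is uncertain. The 3′ untranslated region of Myl12a holds the miR-1 word 1 time. Mylpf, the fast skeletal regulatory chain, measured 2.31 and 2.23 FPKM at E15.5 and under 1 FPKM at P2.5, and Myl10 was listed at 0 in all 4 libraries.

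The heavy chains that carry these light chains gave a partial picture, because the P2.5 row of Myh6 and the E15.5 row of Myh7 are listed at 0 in dKO under a flag for too much data and were not used. Of the 5 others that passed the filter at each stage, 0 reached 1.5-fold upward in dKO. Among all rows, 3.59% (P2.5) and 0.494% (E15.5) went upward that far, so 0 of 5 does not set these genes apart. Downward, 0 of the 5 reached the mark in the P2.5 pair, whereas 1 did in the E15.5 pair (Myh11, below). Myh7, the fetal ventricular heavy chain, was at 595 FPKM in the dHET library and 464 in the dKO one at P2.5 (-0.36), while Myl2 and Myl3 were higher in the same dKO library. The nonmuscle Myh9 was at 35.6 and 51.6 FPKM at P2.5 (0.52). Smooth muscle Myh11 was at 4.30 and 6.41 FPKM at P2.5 and, in the other direction, at 6.95 and 0.915 at E15.5 (-2.05). It passed the filter only through dKO at P2.5 and only through dHET at E15.5, so it had to differ in those directions. Myl9 was higher in dKO at both stages.

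The balance of atrial and ventricular forms was then read as shares within a library, which do not depend on how a library was scaled. Myl7 made up 0.587% of the FPKM of Myl7 plus Myl2 in the P2.5 dHET library and 1.84% in dKO. In the E15.5 libraries it made up 6.49% in dHET and 9.49% in dKO. The share was higher in dKO at both stages. Myl4 made up 0.833% of Myl4 plus Myl3 in dHET against 1.33% in dKO at P2.5, and 29.4% and 30.1% in the E15.5 pair. Both shares were lower in the P2.5 than in the E15.5 libraries. The ratio of Myl3 to Myl4 was 2.40 at E15.5 and 119 at P2.5 for dHET, and 2.32 and 74.4 for dKO. The ratio of Myl2 to Myl7 was 14.4 and 169 for dHET, and 9.54 and 53.3 for dKO. The stages were sequenced and normalised separately, with pairs of reads at E15.5 and single reads at P2.5, and 1 library stands for each, so this is a description.

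Further ratios were taken within each library. The level of the essential pair (Myl3 plus Myl4) over the regulatory pair (Myl2 plus Myl7) was 0.491 in the dHET library and 0.572 in the dKO one at P2.5, and 0.640 and 0.654 in the E15.5 pair. The ratio of Myl4 to Myl7 was 0.696 and 0.411 for P2.5 and 2.90 and 2.08 for E15.5, lower in dKO each time. Myl9 made up 6.13% of Myl2, Myl7 and Myl9 in dHET against 8.34% in dKO at P2.5, and 16.6% and 21.6% in the E15.5 pair. The 8 light chains described here, without Myl12a, Myl12b, Mylpf and Myl10, were also summed. They took 4.23% and 4.93% of the summed FPKM of the rows used at P2.5, and 2.91% and 2.97% in the E15.5 pair.

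**Figure D2:**
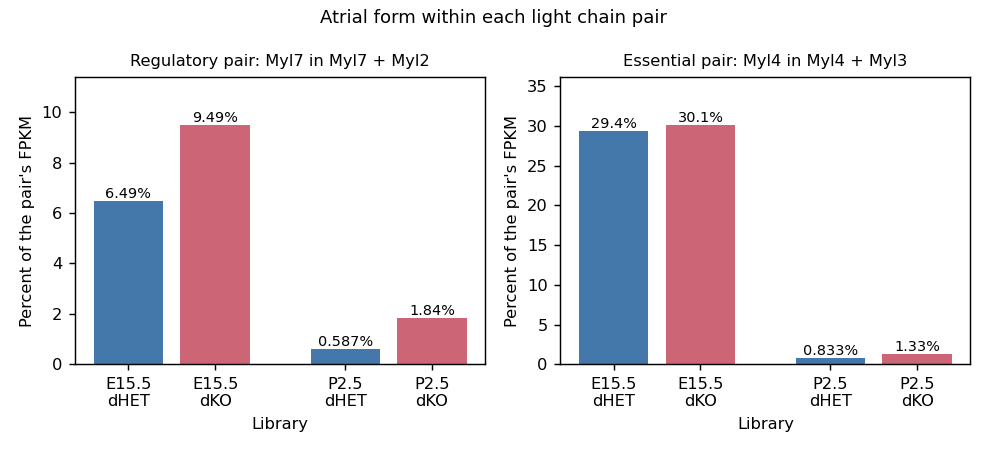
Percent of FPKM taken by the atrial form within each light chain pair (Myl7 in Myl7 plus Myl2, left; Myl4 in Myl4 plus Myl3, right), 1 bar per library with no error since each group has 1 library. The Myl7 share is 6.49% and 9.49% at E15.5 and 0.587% and 1.84% at P2.5 (dHET and dKO), and the Myl4 share is 29.4% and 30.1%, then 0.833% and 1.33%.

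Counted together, 4 of the 7 genes with at least 5 FPKM in either library exceeded 1.5-fold upward in dKO for P2.5 (Myl7, Myl6, Myl4 and Myl9) and 0 were lower. Over all 8197 rows that passed the same filter, 3.59% were higher and 1.15% lower. At E15.5, 1 of 7 was higher (Myl6) and 0 were lower, against 0.494% and 0.566% of 8308 rows. The median change of the 7 was 0.77 in the P2.5 pair and 0.06 in the E15.5 pair, and that of all rows was 0.0826 and -0.0121. Myl1 and Myl6b did not pass the filter and are not in these counts. The 9 genes were chosen with earlier results of these data known, so the contrast with all rows is only a description. In the authors' deposited table, 3 of the 8 genes tested at P2.5 are called significant, all higher in dKO (Myl7, Myl4 and Myl6), against 0.406% of all tested rows, 0.273% higher and 0.133% lower. In the authors' deposited table for E15.5, 1 of the 9 is called significant (Myl6, higher), against 0.936% of tested rows, 0.291% higher and 0.645% lower.

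The P2.5 values depend in part on scaling. Rescaling both libraries to the same sum moved the median change of all rows from 0.0826 to -0.0822, so changes are best read against that median. It also turned the split of all rows past 1.5-fold from 294 higher and 94 lower to 153 and 321, and centring on the median gave 180 and 161. The changes of Myl7, Myl6, Myl4 and Myl9 were then 1.77, 1.07, 1.01 and 0.60 after rescaling, still past 1.5-fold, and those of Myl3 and Myl2 were 0.33 and 0.10.

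**Figure D3:**
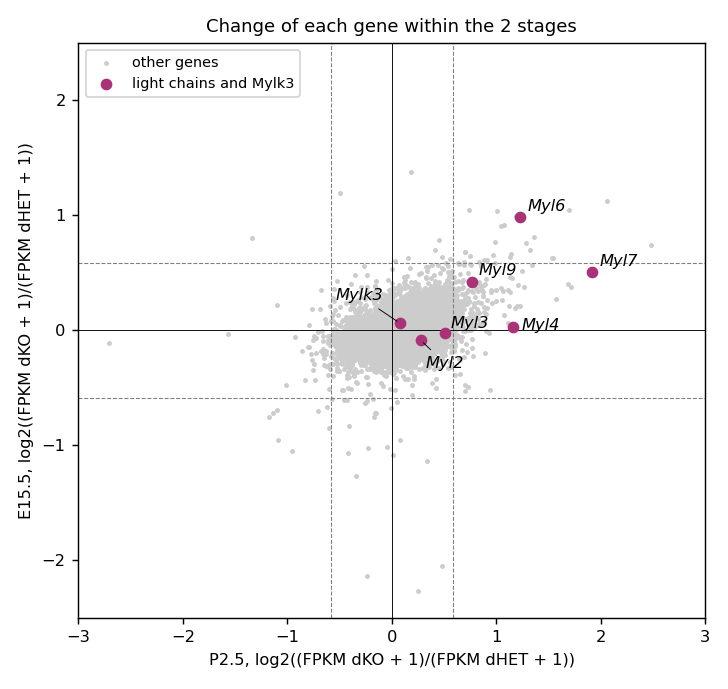
Log2 change (dKO over dHET, FPKM + 1) at P2.5 on the horizontal and at E15.5 on the vertical axis for 7650 genes with at least 5 FPKM at both stages (grey; 3 lie beyond the axes), with 7 of the 9 genes in purple; dashed lines mark 1.5-fold. Myl6 lies beyond 1.5-fold on both axes (1.23 and 0.98), Myl7, Myl4 and Myl9 only on the P2.5 axis, and Myl2, Myl3 and Mylk3 on neither.

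Markers of chambers and cell types, some of which stand in 2 of the lists, were read beside these values, leaving out Myl2, Myl3, Myl4, Myl7 and Myl9 from their lists. The counts here and for the lists below stand beside shares over all rows of 3.59% higher and 1.15% lower at P2.5. At E15.5 those shares were 0.494% and 0.566%. Of 8 other atrial markers that passed the filter at P2.5, 2 passed 1.5-fold upward in dKO and 0 downward. These were Nppa (atrial natriuretic peptide, 182 and 1021 FPKM) and Sln (an inhibitor of the calcium pump, 1.08 and 5.01), and Sln passed the filter only through dKO. Of the 8, 7 had a change above 0 and 1 below, Stard10 (9.43 and 7.48). Among those under the filter, Kcnj3 (2.43 and 0.811) and Bmp10 (0.562 and 0.274) were lower in dKO. Cacna1d (1.62 and 3.35) and Mybphl (0.615 and 1.60), also under it, were higher. These 5 genes were named after their P2.5 values were seen. The summed level of the 13 other atrial markers was 426 FPKM in the dHET library and 1321 in the dKO one, and without Nppa it was 244 and 299.9. At E15.5, 3 of 9 were higher, Nppa (775 and 1297), Sln (8.76 and 14.1) and the calcium channel gene Cacna1d (6.56 in dKO, a change of 0.60, and past the filter only there), and the summed level was 1275 and 1944, or 501 and 647 without Nppa. Most of the difference left without Nppa was that of Pam, named after its values were seen. Pam was at 171 and 215 FPKM at P2.5, and at 371 and 508 at E15.5. None of the atrial markers was at 0. The secreted protein gene Dkk3, from the same list, was lower in the E15.5 dKO library (25.4 and 17.5). The part of atrial tissue in the library values was not tested.

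Ventricular markers other than the light chains summed to 2041 FPKM in the dHET library and 1586 in the dKO one at P2.5, with 2 of 6 at least 1.5-fold lower and 0 higher. Without Pln, which has the highest level of the list, the order turned, to 775 and 855. The 2 lower genes were phospholamban (Pln, 1266 and 731 FPKM) and Mpped2 (9.38 and 5.81), so the 2 went opposite to Myl2 and Myl3 in the same libraries. The ventricular transcription factor Irx4 was at 41.2 and 53.9 FPKM (0.38). At E15.5 the summed level was 899.9 and 870.1 FPKM, or 409.7 and 426 without Pln, with 0 of 7 past 1.5-fold. Of 12 transcription factors of chamber identity, 8 passed the filter at P2.5 and 10 at E15.5, and 0 were past 1.5-fold in either direction. At the shares of all rows given above, these counts do not set the list apart. At P2.5, 4 of the 8 factors had a change above 0 and 4 below. Hand2 was at 43.8 and 58.8 FPKM at P2.5. Hey2, a repressor of atrial genes in the ventricle, was at 39.8 and 30.9 at P2.5 and at 58.1 and 51.6 at E15.5.

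Smooth muscle markers other than Myl9 summed to 826 FPKM in the dHET library and 1965 in the dKO one at P2.5, with 4 of 10 at least 1.5-fold higher and 0 lower, and none at 0. Without Acta2, which has the highest level, the sums were 167 and 273. Smooth muscle actin Acta2 was at 658 and 1692 FPKM, calponin Cnn1 at 15.9 and 53.5, and Tpm2 at 37.8 and 87.8. The fourth was the coactivator gene Myocd (21.7 and 33.9), named after its value was seen. Kcnmb1, a channel subunit under the level filter, was at 0.396 and 2.44. Myl9 was thus higher in the library in which these were higher, while Tagln (17.1 and 16.0) and Smtn (50.7 and 50.1), chosen after their values were seen, were level. At E15.5 they summed to 998 and 1539.7 FPKM, or 306 and 325 without Acta2, with 2 of 10 higher and 1 lower. The 2 were Acta2 (692 and 1215) and Kcnmb1 (2.24 and 7.42), of which Kcnmb1 passed the filter only through dKO. The lower one was Myh11 (6.95 and 0.915), which passed only through dHET and so had to be lower in dKO. Lmod1 (2.33 and 0.410) and the smooth muscle actin Actg2 (4.47 and 1.08), both under the filter, were lower in dKO as well, whereas Myl9 was higher. The part of smooth muscle cells in the Myl9 values was not tested.

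**Figure D4:**
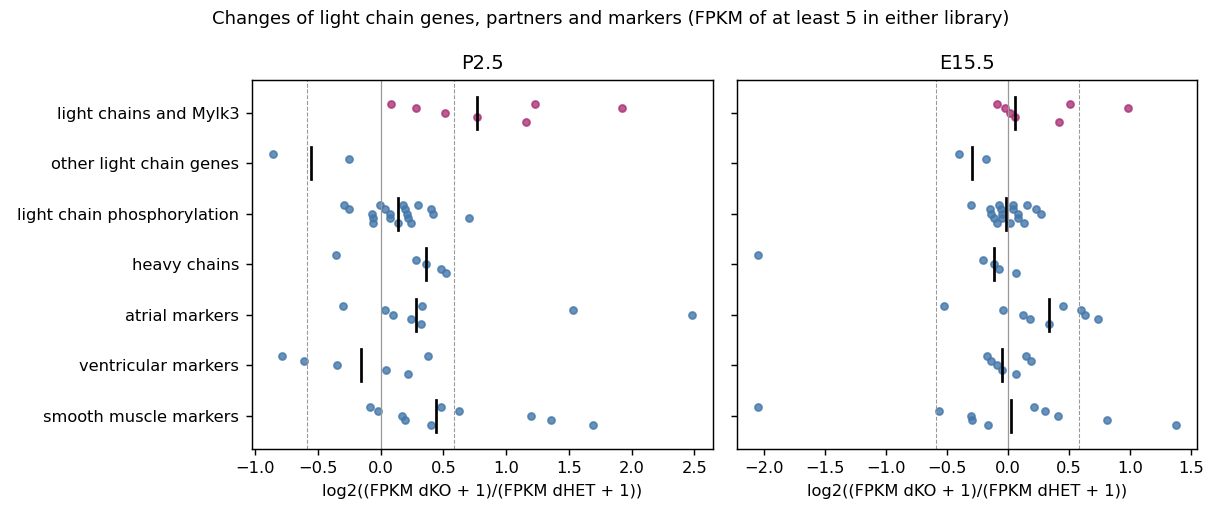
Log2 change (dKO over dHET, FPKM + 1) of single genes at P2.5 (left) and E15.5 (right) for the light chains with Mylk3 (purple) and for 6 other gene lists without those genes (blue), for genes with at least 5 FPKM in either library; black bars are list medians and dashed lines mark 1.5-fold. The medians of the light chains with Mylk3 are 0.77 and 0.06, and those of light chain phosphorylation 0.14 and -0.01. Those of the other light chain genes are -0.55 and -0.29, from 2 genes only (Myl12a and Myl12b).

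The genes whose pair of changes lay nearest to those of a light chain were listed over 7245 named protein-coding genes, by the distance in the plane of the P2.5 and E15.5 changes. Nearest to Myl7 (1.92 and 0.51) were Atp6v0e2 (1.72 and 0.37), Cnn1 (1.69 and 0.41), Slc8a2 (1.54 and 0.63), Sln (1.53 and 0.63) and Slc16a3 (1.57 and 0.28). Their distances were 0.241 to 0.420. Atp6v0e2 (1.77 and 8.13 FPKM), Slc8a2 (1.34 and 5.80) and Sln passed the filter at P2.5 only through dKO, so they had to differ there, and the pseudocount damps their changes. Slc8a2 (3.01 and 5.19 FPKM) passed only through dKO at E15.5 as well. Nearest to Myl4 (1.16 and 0.02) were Itgb1bp3, Tesc, Unc119, Casq1 and Tpm2, at distances of 0.057 to 0.193. Nearest to Myl6 (1.23 and 0.98) were Sdsl, Srsf9, Trappc4, Acta2 and Kalrn, at 0.038 to 0.230, of which Kalrn (3.23 and 9.30 FPKM) passed at P2.5 only through dKO. Nearest to Myl2 were Ctnnbip1, Zfp259, Dhx38, H2afx and Ap2s1, all within 0.006. Likeness here rests on 2 values per gene.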

How the data were processed

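Gene expression was measured by sequencing of poly-A selected RNA, with 100-base reads, single at P2.5 and paired at E15.5, per the labels. The authors deposited 1 table per stage with FPKM values per gene and their own log2 fold change, q-value, p-value and a status flag. The submitters' processing notes name TopHat, Bowtie and Cufflinks without versions, and the build mm9. The handling of multi-mapping reads is not given in the sources used here. Commas had displaced 86 rows, which were realigned. Rows with the flags OK or NOTEST were used (22377 at P2.5, 22374 at E15.5). The E15.5 fold change, deposited as control over dKO, was turned. Starts are printed 1 base above the deposited ones, which count from 0.

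Changes were log2((FPKM dKO + 1)/(FPKM dHET + 1)), called at 1.5-fold where either library reached 5 FPKM. No test was possible with 1 library per group. Implied standard errors are the authors' deposited log2 fold change over their test statistic. Scaling totals came from the FPKM of single fragments in genes of at least 1000 bases. Estimated fragments use the reference transcript length, and their 95% intervals cover counting error only. Genome copies were at least 95% identical over at least 50% of a transcript (minimap2 2.31-r1302, splice preset, NCBIM37, the assembly of mm9). Python 3.11.15 and pandas 2.3.3 were used, and the computation of changes and calls was tested on simulated data. Alternatives were pseudocounts of 0.1 and 5, filters of 0 and 10, rescaling to 1000000, centring, all flags and other share denominators.

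The 9 genes and the 12 gene lists were chosen with earlier results of these data known. All 9 genes are named, with up to 4 genes of each list by absolute change at an FPKM of at least 1, and the 5 genes nearest to each of Myl7, Myl4, Myl6 and Myl2. Genes of a list that a group sentence needs are marked where they fall outside this rule.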

Additional observations from a re-analysis of the deposited data

Results flagged for a closer look

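The sign of the change differed between the 2 stages for 3 of the 9 genes, each from 1 pair of libraries per stage, and the difference between stages was not tested. Of the 7 that passed the level filter at both stages it differed for 2, against 37.0% of all 7650 such genes, so the count does not set them apart. For Myl2 the log2 change was 0.28 in the P2.5 pair and -0.09 in the E15.5 pair. Myl3 had 0.51 and -0.02. The E15.5 values of both are smaller than the standard errors implied by the authors' deposited table, 0.32 and 0.27. Myl1 had -0.08 and 0.45, from about 5 to 58 fragments per library. The P2.5 pair also differed in sex and in summed FPKM, and its changes of Myl2 and Myl3 were 0.10 and 0.33 after rescaling to a common sum. The part of sex and scaling in these differences was not tested.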

How the results depend on the processing

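No paired analysis was possible because each group has 1 library, and no library could be left out for the same reason. The counts of genes past 1.5-fold (4 higher and 0 lower at P2.5, 1 and 0 at E15.5) were the same, with the same genes, under both pseudocounts, both filters, rescaling, centring and all flags. Of 126 recomputed values, 5 moved by more than the margin used, which was the standard error implied by the authors' deposited table for a change, 1.1 times for a share and 1.5 times for a count. That margin is wide for Myl1 and Myl6b. At P2.5 it is also wide for Myl2 (0.78) and Myl3 (0.68), where it exceeds the changes themselves. The higher Myl7 share in dKO was 1.14 percentage points at P2.5 and 2.03 at E15.5 over Myl2, Myl7 and Myl9, against 1.26 and 3.0 over Myl7 plus Myl2. That of Myl4 at E15.5 was 0.182 over the 5 essential chains, against 0.687 over Myl4 plus Myl3. These denominators also hold Myl9 or Myl6, which were higher in dKO. The E15.5 change of Myl1, 0.45 as reported, was 1.56 with a pseudocount of 0.1 and 2.25 in the authors' deposited table, since its levels lie under 1 FPKM. Mylk3 at P2.5 changed sign under rescaling (-0.09). Depth limits Myl1 and Myl6b, at about 5 to 99 fragments per library. Myl6 is limited by its genome copies.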

Other observations

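The remaining marker lists were read as a check of the other cells in the heart libraries. Of 8 endothelial markers, 0 passed 1.5-fold at either stage, with summed levels of 363 FPKM in the dHET library and 413 in the dKO one at P2.5, and 272 and 288 in the E15.5 pair; Tie1, an endothelial receptor, was at 38.3 and 53.5 FPKM at P2.5. Of 8 fibroblast markers, 2 were at least 1.5-fold lower in dKO at P2.5, the matrix proteoglycans Dcn (187 and 122 FPKM) and Lum (44.7 and 26.7), and 0 passed at E15.5. The collagen genes Col1a1 (221 and 309 FPKM), Col1a2 (197 and 253) and Col3a1 (464 and 571), the last pair named after their values were seen, were higher in dKO at P2.5. Postn was lower there (303 and 205 FPKM, -0.56). In all, 3 of the 8 fibroblast markers had a change above 0 at P2.5 and 5 below, with a median of -0.21. The summed fibroblast level was 1454 and 1518 at P2.5 and 1145 and 1097 for E15.5. Epicardial markers had 0 of 3 past 1.5-fold at P2.5 and 1 of 5 lower at E15.5, Krt19 (8.42 and 5.18 FPKM). Leukocyte markers had 1 of 4 lower at P2.5, the complement gene C1qc (8.13 and 5.02), and 0 that passed the level filter at E15.5.

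Myl12a and Myl12b, summed with Mylpf and Myl10, were at 147 FPKM (dHET) and 108 (dKO) in the P2.5 pair, and 126 and 100.3 in the E15.5 pair. The sum was lower in dKO in both pairs, while Myl9 and Myl6 were higher.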
